A study of Mus musculus with 20 samples.

Results

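The immediate early genes Egr1, Egr2, Egr3, Fos, Fosb, Jun, Junb, Atf3, Ier2 and Btg2 were followed in RNA precipitated with HA-tagged ribosomes and in RNA of the whole mouse testis. They were chosen by symbol with earlier results of these data known, so their counts beside the shares of all genes are a description. Each was read from the 1 probe set annotated to its symbol alone. All 10 were among the 15651 genes tested, out of 19938 genes with such a probe set. All animals were male, of strain 129/C57BL6, and positive for RiboTag and Cyp17icre. RiboTag is a ribosomal protein allele that gains an HA tag in cells with Cre recombinase, and Cyp17a1, the gene behind the Cre driver, is expressed in the androgen-producing Leydig cells between the seminiferous tubules. All animals also received WIN 18,446, an inhibitor of retinoic acid synthesis, at 100 µg/g for 7 days from 2 days after birth. An injection of 200 µg all-trans retinoic acid followed at 9 days, which brings the tubules into the same phase of spermatogenesis. Testes were taken 42 to 50 days later. The synchronized tubules placed them in 5 stage windows of the spermatogenic cycle: stages XII-II/III, then II/III-VI, then VI-VIII, then VIII-X and, last, X-XII. Per time point 1 testis was homogenized, 50 µl gave the RNA called total testis here, and the rest went into an overnight precipitation with an antibody against HA, called IP. Each of the 10 groups of window and fraction had 2 arrays (20 arrays, GeneChip ST 1.0). The labels do not say how the replicates relate, so p-values measure the spread between these samples, which may be technical in part. For total testis XII-II/III replicate 1 the source field names X-II/III, and the title and stage field, which read XII-II/III, were used.

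Immediate early genes are transcribed within minutes of a stimulus, without new protein synthesis. Their promoters are read by factors already in the nucleus, such as SRF with its ELK partners, which answer to MAP kinases, and CREB, which answers to cyclic AMP. The EGR proteins are zinc finger factors that bind GC-rich sites, and FOS and JUN proteins pair to form AP-1. In Leydig cells luteinizing hormone acts mainly through cyclic AMP. The same genes also rise when tissue is dissected or dissociated, which is why each array is described.

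The values showed 4 sets of 5 arrays (fraction by replicate number, each holding the 5 windows), which appear to have been normalized separately. The median log2 intensity lay between 9.71 and 9.75 in IP replicate 1, between 9.97 and 10.06 in IP replicate 2, and between 9.41 and 9.45 in the total arrays. Levels in different sets are therefore not on a common scale, and differences between windows are given also with a term for each set (the replicate block). Of the Leydig cell markers 8 of 8 tested were higher in IP, with a median log2 difference of 2.63, and their adjusted p-values over the IP windows were at least 0.444 (Fdx1). Spermatocyte markers were lower in IP in 12 of 12 tested, spermatid markers in 11 of 13 and macrophage markers in 7 of 9, where 2 were higher. These directions held after centring the arrays or quantile normalization, with macrophage markers higher in 1 of 9. Sertoli cell markers were higher in IP in 7 of 10 and lower in 0 as deposited, and their summed level lay between 14.46 and 15.16 in log2 in IP and between 14.07 and 14.23 in total testis. After centring 3 of the 10 were higher and 1 lower, and after quantile normalization 4 and 1. As deposited, 2 of 8 spermatogonia markers were higher and 3 lower, 1 of 8 peritubular myoid cell markers was higher and 5 lower, and 1 of 6 endothelial cell markers was higher and 2 lower. The part of these cells in the members' values was not tested. No tested marker was listed at 0. Germ cell signal remained on the IP arrays: the summed spermatid markers lay between 15.82 and 16.56 in log2 there and between 16.79 and 16.99 in total testis, on scales set separately. Unless stated otherwise, p-values are from limma fitted over all genes, adjusted by the Benjamini-Hochberg method, with a threshold of 0.05. The number of arrays limits the precision of every value.

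The first question was whether the genes changed over the windows in the IP. Egr1 and Btg2 did, both with their highest values in stages II/III-VI. By the F test over the 5 IP windows 2 of 10 members were called, and 8.87% of all genes tested were. With the replicate block 5 of 10 were called, and 19.2% of all genes. The added members were Egr3, Fos and Ier2. Fos and Ier2 are dim and passed the filter on low intensity only through IP groups, so their calls add no support to this count. Egr2, Fosb, Jun, Junb and Atf3 were called in neither fit.

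Egr1 (probe set 10454782) codes for the founding EGR factor. Its log2 intensities in IP II/III-VI were 10.99 and 11.63 in replicates 1 and 2. In the windows before and after it they were 8.88 and 10.16 (XII-II/III) and 8.92 and 9.02 (VI-VIII), and in the later windows 8.79 and 9.17 (VIII-X) and 10.02 and 9.52 (X-XII). Both II/III-VI arrays lay above the other 8 IP arrays, while XII-II/III split by 1.28 between its replicates. II/III-VI exceeded the mean of the other 4 windows by 2.00 ± 0.24 in log2 (SE, 2 arrays against 8), a 4.01-fold difference, with an F test adjusted p = 0.000207 (0.00147 with the replicate block). The difference was 1.84 within the arrays of replicate 1 and 2.16 within those of replicate 2. It was called in each of the 20 fits that left out 1 array. In a fit of the 10 IP arrays alone the SE was 0.28 and the F test adjusted p 0.00680. With the block that fit came close to the threshold (SE 0.29, adjusted p = 0.0447). Egr1 in VI-VIII differed from the mean of the other 4 windows by -0.92 ± 0.24 (adjusted p = 0.0271). In VIII-X the same contrast gave -0.92 ± 0.24 (adjusted p = 0.0434). Both means include the II/III-VI peak, and XII-II/III replicate 1 (8.88) lay among the arrays of VI-VIII and VIII-X.

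Fos (10397346), the AP-1 partner of JUN proteins, was dim. Its IP values in replicate 1 were 7.71, 8.12, 7.52, 7.64 and 7.77 in window order from XII-II/III to X-XII. In replicate 2 they were 8.31, 8.77, 8.08, 8.21 and 8.10. II/III-VI was highest within each set, but the set of replicate 2 lay higher throughout, so that 8.12 fell among its other windows. Fos was tested only because its IP II/III-VI mean passed the intensity floor of 8.20, so a difference in that direction was built into its selection and the p-values here are a description. The II/III-VI difference was 0.53 ± 0.20 without the block (adjusted p = 0.631) and 0.53 ± 0.056 with it (adjusted p = 0.00107). With no filter at all, an alternative chosen after seeing the data, the adjusted p of Fos with the block was 0.00108. It was 0.46 within replicate 1 and 0.59 within replicate 2.

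Btg2 (10357875), an antiproliferative gene induced together with the EGR genes in many cells, measured 11.04 and 11.23 in IP II/III-VI. The other windows measured 10.56 and 10.53 (XII-II/III), 10.30 and 10.43 (VI-VIII), 10.03 and 10.42 (VIII-X) and 10.73 and 10.10 (X-XII). Both II/III-VI arrays lay above the other 8. The difference was 0.75 ± 0.16, or 1.68-fold (adjusted p = 0.0421, with the block 0.0239), and 0.64 and 0.86 within the sets. This call was close to the threshold: it was kept in 5 of 20 fits that left out 1 array and lost in the others, up to an adjusted p of 0.279 without IP II/III-VI replicate 2. Array weights (0.862) and a fit of the 10 IP arrays alone (0.208, with the block 0.171) also lost it.

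II/III-VI was the highest window of both IP sets for Egr1, Fos and Btg2, 3 of 10 members, against 4.38% of all genes. Counting any window, 6 of 10 members (with Egr2, Egr3 and Jun) had the same highest window in both IP sets, against 33.4% of all genes. The members were chosen with earlier results of these data known, so both counts are a description. Fos was tested only through IP II/III-VI, so its peak there was built into its selection and adds no support to either count. In this window the summed macrophage markers lay 0.02 to 0.15 in log2 above their set means, the Leydig cell markers 0.01 to 0.03 above, and the spermatogonia markers between -0.32 and -0.12. Of 9 macrophage markers 1 had a window effect in IP, against 8.87% of all genes. This was Adgre1, the gene of the F4/80 antigen. It was higher in IP II/III-VI by 0.77 ± 0.12 (adjusted p = 0.000835) and lower in IP than in total testis by -0.68. Csf1r, Cd68, C1qa, C1qb and Lyz2, further macrophage genes, had adjusted p-values of 1 over the IP windows. The part of other cells in the Egr1, Fos and Btg2 differences was not tested.

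**Figure D1:**
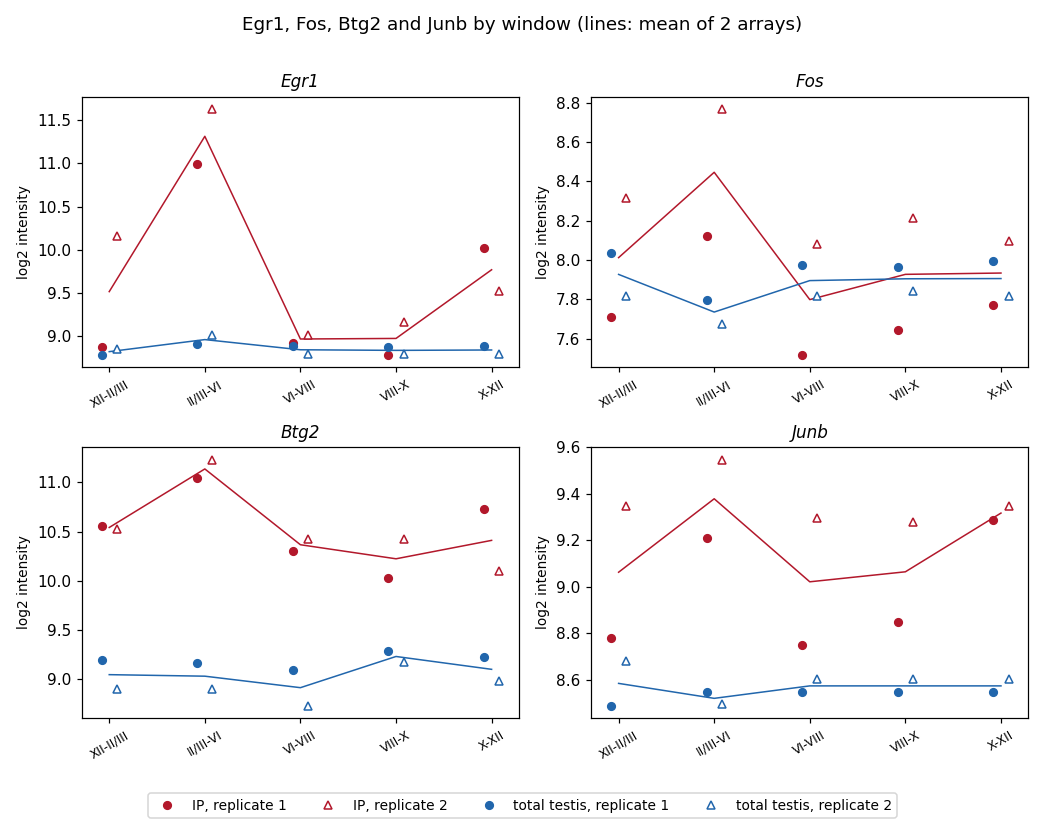
Log2 intensity (y axis) of Egr1, Fos, Btg2 and Junb in each array by window (x axis), with IP in red, total testis in blue, circles for replicate 1, triangles for replicate 2 and lines through the mean of the 2 arrays. IP II/III-VI stands highest for Egr1 (10.99 and 11.63), while its total testis arrays lie between 8.79 and 9.01.

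The promoters of Fos and Btg2 are shown because these genes moved with Egr1 and have an entry in the RefSeq promoter table (build GRCm38.p6), which covers 7 of the 10 members. Egr1, Egr3 and Ier2 are not in it. The 250 bases before the start are given 5′ to 3′ on the gene's strand, from chr12:85473640-85473889 (plus strand) for Fos and chr1:134079156-134079405 (minus strand) for Btg2, with matches to the motifs searched in capitals.
Fos: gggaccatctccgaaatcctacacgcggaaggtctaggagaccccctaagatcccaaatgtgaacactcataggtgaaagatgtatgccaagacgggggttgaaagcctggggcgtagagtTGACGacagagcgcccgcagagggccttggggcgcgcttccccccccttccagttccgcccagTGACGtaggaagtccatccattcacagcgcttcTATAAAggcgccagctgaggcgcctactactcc
Btg2: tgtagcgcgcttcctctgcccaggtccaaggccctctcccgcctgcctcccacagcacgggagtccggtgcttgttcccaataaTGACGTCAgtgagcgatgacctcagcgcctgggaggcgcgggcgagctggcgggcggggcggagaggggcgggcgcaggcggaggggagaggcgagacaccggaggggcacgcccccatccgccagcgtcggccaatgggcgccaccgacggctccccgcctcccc
The capitals mark the core TGACG of the cyclic AMP response element, its full form TGACGTCA (which contains the core on both strands) and the box TATAAA. In Fos the core begins at -129 and at -66 from the start and TATAAA at -33. In Btg2 the full element spans -166 to -159. Both strands were searched over the 250 bases before and 50 after each start. The core was present in any entry of 6 of 7 members, and in 20.8% of 32851 single promoter entries of that length. The exception was Jun. Egr2 had 5 entries, so its count is not on the same footing as the share of single entries. The full element was found in Btg2 (1.79% of all promoters), the CArG box of SRF in Egr2 (1.63%), GCGGGGGCG of the EGR factors in Fosb (2.91%), TATAAA in Fos and Junb (13.6%), and the AP-1 site TGAGTCA in none of the 7 (5.2%). In Junb the TATAAA match spans positions 1 to 6 after the start, not before it as in Fos. These are matches of letters in a window, not mapped binding sites. Sequence outside the window was not searched, so a motif without a match may lie beyond it.

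Among the other EGR genes, Egr3 (10416251) was highest in VI-VIII. Its IP values from XII-II/III to X-XII were 9.48, 9.95, 10.34, 10.07 and 9.76 in replicate 1 and 10.04, 10.38, 10.74, 10.72 and 10.29 in replicate 2. Both sets rose from their lowest value in XII-II/III to their highest in VI-VIII. The VI-VIII difference was 0.45 ± 0.21 without the block (adjusted p = 0.367) and 0.45 ± 0.11 with it (adjusted p = 0.0149). Egr2 (10363735) stayed within 8.10 to 8.61 in IP, and its largest departure from a set mean was 0.09 (-0.09 in VI-VIII). In IP no window difference of Egr2 was called (F test adjusted p = 1, with the block 0.351).

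The JUN genes were flatter. Jun (10514466), the main AP-1 partner of FOS, ranged from 11.03 to 11.79 in IP. Its highest window, VIII-X, exceeded the others by 0.29 ± 0.16 (adjusted p = 0.883, with the block 0.122). Junb (10580282), a JUN protein that can restrain JUN, measured 9.21 and 9.55 in IP II/III-VI and 9.29 and 9.35 in X-XII. The other 6 IP arrays of Junb lay between 8.75 and 9.35, so the windows overlapped. Its II/III-VI difference was 0.26 ± 0.16 (adjusted p = 0.962, with the block 0.0723). Fosb (10560481), a FOS family gene, had its highest mean in VIII-X (8.88 and 9.09), although X-XII (8.92) was highest in replicate 1. The VIII-X difference of 0.27 ± 0.15 was not called (adjusted p = 0.908, with the block 0.338).

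Ier2 (10580183), an immediate early nuclear protein, measured 8.16, 8.16, 7.94, 8.17 and 8.36 from XII-II/III to X-XII in IP replicate 1. In replicate 2 it measured 8.26, 8.42, 8.01, 8.26 and 8.26. VI-VIII was lowest in both sets, and the highest window differed between them. The X-XII difference of 0.14 ± 0.11 was not called without the block (adjusted p = 0.661). With the block the F test was called (adjusted p = 0.0290), but the X-XII contrast itself was not (adjusted p = 0.233). The VI-VIII contrast was -0.28 ± 0.055 with the block (adjusted p = 0.00761, without the block 0.197). The X-XII difference was 0.25 in replicate 1 and 0.02 in replicate 2. Atf3 (10361091), a stress-induced factor of the ATF family, varied by at most 0.19 around a set mean in IP (X-XII replicate 1), and no window was called (adjusted p = 1, with the block 0.257).

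**Figure D2:**
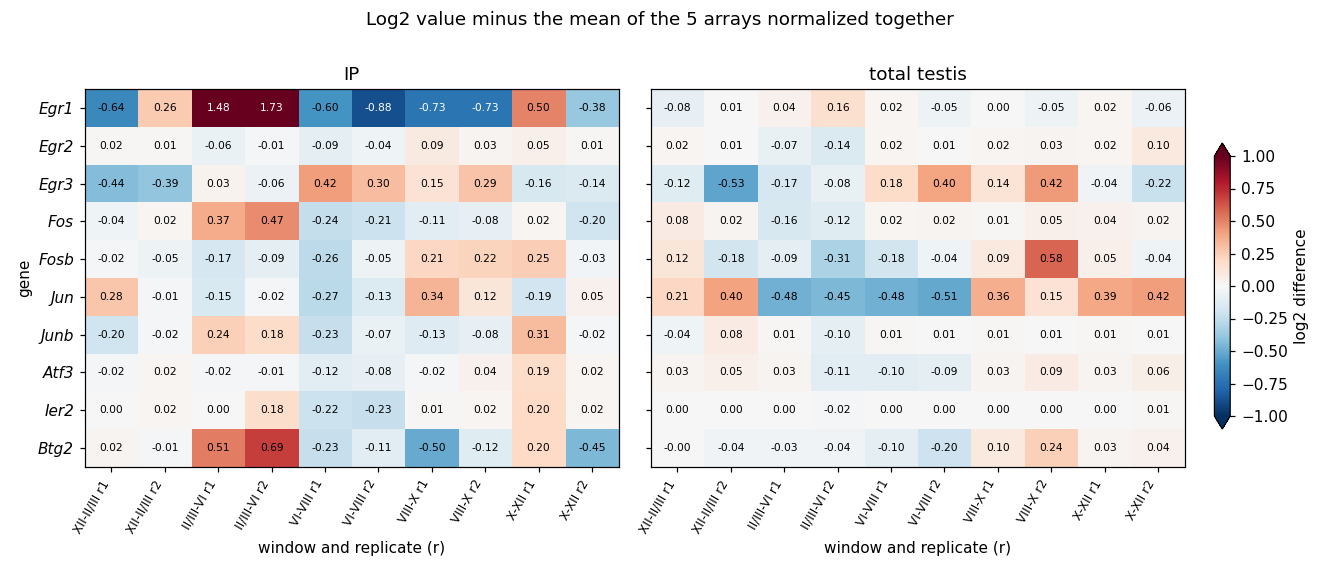
Log2 value minus the mean of the 5 arrays normalized together (colour and printed number) for the 10 genes (y axis) in each IP and total testis array (x axis, window and replicate). Egr1 in IP II/III-VI stands at 1.48 and 1.73, Fos at 0.37 and 0.47 and Btg2 at 0.51 and 0.69, while Egr2 and Atf3 stay within 0.19 of 0.

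In total testis RNA the question was whether the whole organ showed the same course. Here Jun changed with the cycle, and the II/III-VI peaks seen in IP for Egr1, Fos and Btg2 were small or absent. The F test called 1 of 10 members, Jun, and 18.4% of all genes. With the replicate block it called 2 of 10, Jun and Egr3, and 36.7% of all genes. In RNA of whole testes, fewer cells of a type and less RNA per cell cannot be told apart.

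Jun in total testis measured 9.91 and 10.03 in XII-II/III, 9.22 and 9.17 in II/III-VI and 9.22 and 9.11 in VI-VIII. It measured 10.06 and 9.77 in VIII-X and 10.09 and 10.04 in X-XII. The 4 arrays of II/III-VI and VI-VIII lay below the other 6. The F test over the windows was called (adjusted p = 0.00492, with the block 0.000422). X-XII had the highest mean, 0.50 ± 0.16 above that of the other 4 windows. Its own contrast was not called without the block (adjusted p = 0.0982, with the block 0.00872). II/III-VI was lower by -0.58 ± 0.16 (adjusted p = 0.0261) and VI-VIII by -0.62 ± 0.16 (adjusted p = 0.0160). The F test of Jun was called in each of the 20 fits that left out 1 array.

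Egr3 in total testis measured 9.77, 9.72, 10.07, 10.03 and 9.85 in replicate 1 and 9.54, 9.99, 10.46, 10.48 and 9.84 in replicate 2. VI-VIII and VIII-X were high in both sets, as in IP. The VI-VIII difference was 0.36 ± 0.21 (adjusted p = 0.369, with the block 0.0140). Summed spermatocyte markers in VI-VIII lay 0.01 to 0.03 above their set means in total testis and 0.04 to 0.44 above in IP, and their part in the Egr3 values was not tested. Fosb had its highest mean in VIII-X, with 8.81 and 9.19, although XII-II/III (8.84) was highest in replicate 1. That difference, 0.42 ± 0.15, was not called (adjusted p = 0.307, with the block 0.132) and came to 0.12 in replicate 1 and 0.72 in replicate 2.

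Egr1 in total testis lay between 8.79 and 9.01. Its 2 highest arrays, 8.91 and 9.01, were those of II/III-VI, with a difference of 0.13 ± 0.24 (adjusted p = 1, with the block 1). Fos measured 7.80 and 7.67 in total II/III-VI, the lowest value of each set. With the block this contrast was -0.17 ± 0.056 (adjusted p = 0.0422, without the block 0.819). No group mean of Fos in total testis passed the floor. Btg2 was highest in VIII-X, by 0.21 ± 0.16 (adjusted p = 1). Egr2 was lowest in II/III-VI in both sets (8.20 and 8.15). With the block its II/III-VI contrast was -0.13 ± 0.042 (adjusted p = 0.0369, without the block 0.809). The F test of Egr2 in total testis was not called with the block (adjusted p = 0.165). Junb, Atf3 and Ier2 hardly varied in total testis: all 5 Ier2 arrays of replicate 1 held the same value (7.49), and Junb and Atf3 held 2 distinct values each in that set. In total testis 3 of 10 members (Egr1, Jun and Btg2) had the same highest window in both sets, against 44.1% of all genes. Ties of equal values made up 4.68% to 15.6% of the values shared by 2 arrays of a set.

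**Figure D3:**
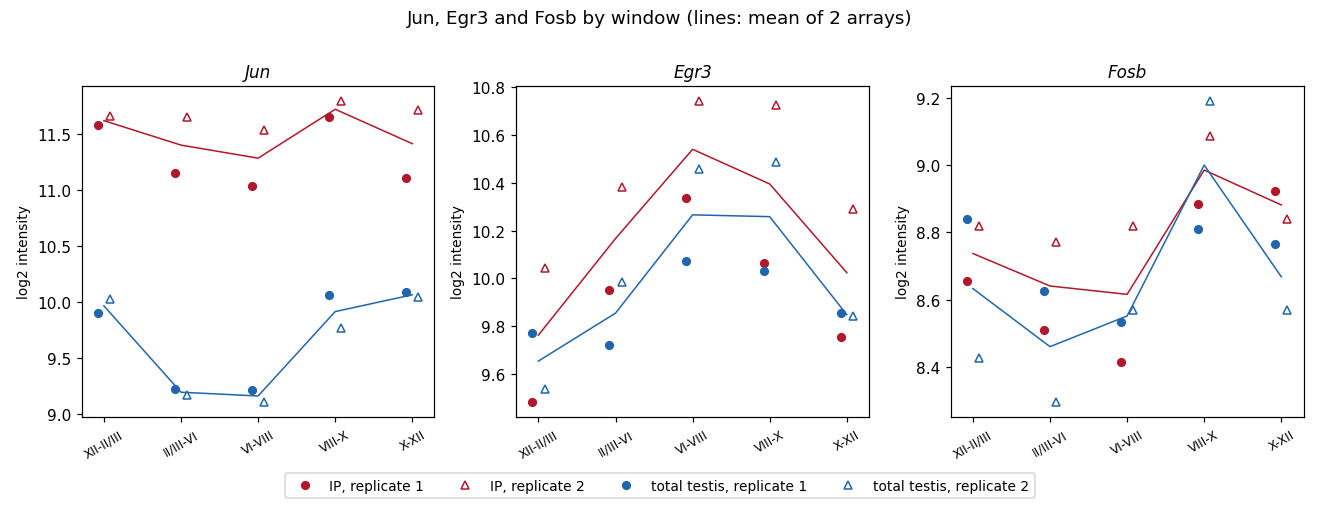
Log2 intensity (y axis) of Jun, Egr3 and Fosb in each array by window (x axis), with IP in red, total testis in blue, circles for replicate 1, triangles for replicate 2 and lines through the mean of the 2 arrays. Jun in total testis is low in II/III-VI and VI-VIII (9.11 to 9.22) and Egr3 is high in VI-VIII and VIII-X in both fractions.

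The next comparison tested whether the window pattern differed between IP and total testis. Without the block no member was called, and 0.0511% of all genes (8 genes) were. The unadjusted p was 0.000437 for Egr1 and 0.0197 for Btg2, and above 0.05 for the other 8. Egr1 showed the largest term: its IP minus total difference in II/III-VI exceeded that of the other windows by 1.88 ± 0.33 (adjusted p = 0.112, with the block 0.0550). After centring each array on its median the adjusted p of Egr1 was 0.0297, and after quantile normalization 0.0308. With the block 1 of 10 members was called, Fos, with 0.70 ± 0.079 (adjusted p = 0.0139, without the block 1), and 2.31% of all genes. The Fos term holds both a difference of 0.53 in IP and one of -0.17 in total testis, where its group means lay below the floor. Since Fos was tested only through IP II/III-VI, this call is a description too. With no filter and the block its adjusted p was 0.0142. The terms of Btg2 (0.79 ± 0.23, adjusted p = 0.749, with the block 0.178), Jun (0.47 ± 0.23, adjusted p = 1, with the block 0.0951) and Junb (0.32 ± 0.23, adjusted p = 1, with the block 0.366) were not called.

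IP and total arrays of a window and replicate number were taken as 1 testis. Set side by side per testis, the rise was not shared by all members of an array. In IP II/III-VI 6 of 10 members lay above their set mean in replicate 1 and 5 of 10 in replicate 2. In IP X-XII 8 of 10 did in replicate 1 and 4 of 10 in replicate 2. In IP VI-VIII 1 of 10 did in either replicate, Egr3. In total RNA of the II/III-VI testes 3 of 10 and 1 of 10 lay above. Of 21 tested genes of stress and tissue dissociation, such as heat shock genes, 1 had a window effect in IP, against 8.87% of all genes. This was Cebpb, a bZIP factor that was highest in X-XII (0.65 ± 0.097, adjusted p = 0.0016). With the block there were 3, against 19.2% of all genes. Of them 1, the heat shock gene Hspa1a, was highest in II/III-VI (0.34, adjusted p = 0.00837, without the block 0.153). The part of handling in the array differences was not tested.

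The IP was then set against the total RNA of the same testes. Jun and Btg2 stood far above total testis, Ier2, Egr1 and Junb were moderately higher, and the other 5 members differed little. In all, 6 of 10 members were called higher and 0 lower, among all genes 50.1% and 26.6%. Ier2, counted here and among the 4 called with the random block, passed the filter only through IP and adds no support to either count. The sets were normalized separately: the median of all genes was 0.20 as deposited, -0.24 after centring each array on its median and -0.07 after quantile normalization over all arrays. The share of higher among all calls was 65.3%, 34.8% and 45.1% in the same order. With the set as a random block 4 of 10 members were called higher (Jun, Btg2, Ier2 and Junb), and 0 lower, among all genes 40.3% and 18.8%. No set holds arrays of both fractions, and the sets are few. The p-values of this comparison, also those with the random block, are therefore limited as a measure of the spread between sets. With the testis as a block the calls were those of the first fit (6 higher, 0 lower, against 50.1% and 26.8% of all genes). The IP arrays of Jun, Btg2, Ier2 and Junb all lay above all their total arrays, which held for 32.8% of all genes. Ier2 adds no support here either, since it was tested only through IP.

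Jun in IP lay between 11.03 and 11.79 and in total testis between 9.11 and 10.09. The difference was 1.83 ± 0.093 (10 arrays per fraction, 3.54-fold, adjusted p = 1.16e-11, with the random block 5.56e-07), 1.61 in replicate 1 and 2.05 in replicate 2. Btg2 lay between 10.03 and 11.23 in IP and between 8.73 and 9.29 in total testis. Its difference was 1.47 ± 0.091 (2.78-fold, adjusted p = 1.55e-10, with the random block 5.42e-05). Both genes were higher in IP in 10 of 10 testes and under both rescalings.

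Ier2 lay between 7.94 and 8.42 in IP and between 7.31 and 7.49 in total testis, with a difference of 0.79 ± 0.062 (adjusted p = 3.15e-09, with the random block 1.63e-05). It passed the floor in 4 IP groups and in no total group, so it too was tested through IP alone and its p-values are a description. With no filter the adjusted p was 4.22e-09, and 3.46e-05 with the random block. Junb ranged from 8.75 to 9.55 in IP and from 8.49 to 8.68 in total testis, a difference of 0.60 ± 0.091 (adjusted p = 1.23e-05, with the random block 0.00407). Both were higher in 10 of 10 testes and under both rescalings.

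Egr1 was higher in IP in 9 of 10 testes, by -0.09 at the lowest, 0.55 at the median and 2.62 at the highest. The mean difference of 0.85 ± 0.13 (adjusted p = 1.99e-05) had an SE of 0.36 and an adjusted p of 0.0564 with the random block. The II/III-VI testes, with differences of 2.08 and 2.62, carried much of it: without that window it was 0.47 ± 0.15 (adjusted p = 0.00925, an alternative chosen after seeing the data). Atf3 was called as deposited (0.24 ± 0.11, adjusted p = 0.0464), but not with the random block (0.148), and its difference was -0.00326 in replicate 1, 0.49 in replicate 2 and -0.20 after centring. The other 4 were not called as deposited: Egr3 (0.20, adjusted p = 0.129), Fos (0.15, 0.232), Fosb (0.11, 0.243) and Egr2 (0.10, 0.272). After centring these 4 fell below total testis together with Atf3 (5 higher and 5 lower calls), and after quantile normalization Egr2 and Egr3 did (5 higher, 2 lower).

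**Figure D4:**
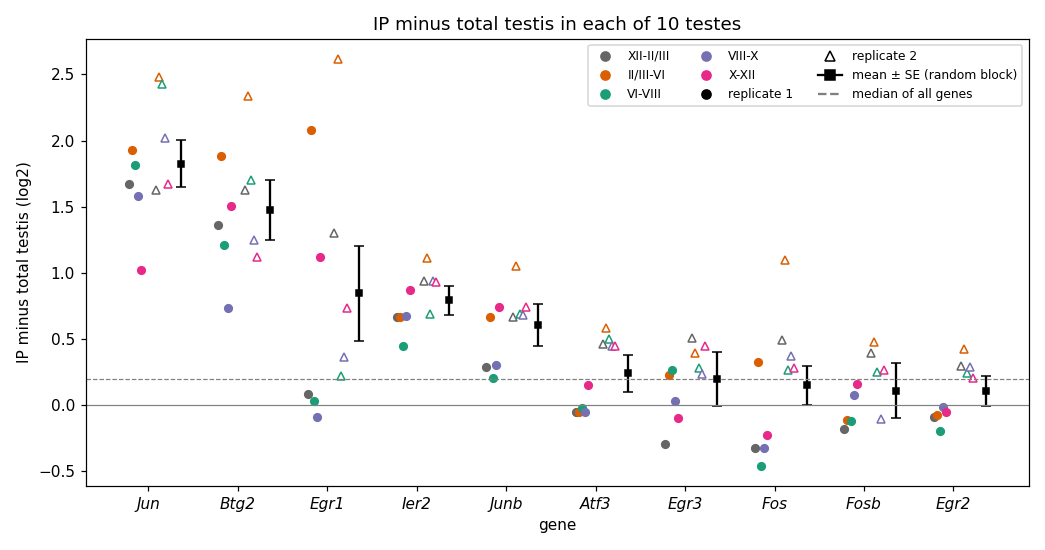
IP minus total testis in log2 (y axis) for each gene (x axis) in each of 10 testes, coloured by window, with circles for replicate 1, triangles for replicate 2, black squares with bars for the mean ± SE of the random block fit and a dashed line at the median of all genes (0.20). All 10 testes lie above 0 for Jun, Btg2, Ier2 and Junb, and the 2 testes of II/III-VI stand highest for Egr1 at 2.08 and 2.62.

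The members did not vary as 1 group. Over the 10 IP arrays, centred within their sets, the 45 pairs of members had a median Pearson r of 0.17, from -0.57 (Egr3 and Ier2) to 0.94 (Egr1 and Fos). Egr1 and Btg2 had r = 0.88, Fos and Btg2 0.91, and Egr1 and Junb 0.82. Without the II/III-VI arrays these were 0.54, 0.63 and 0.79 over 8 arrays, and 0.68 for Egr1 and Fos. Egr2 and Fosb had r = 0.89, at small amplitudes. In total testis the pairs ranged from -0.84 (Egr1 and Egr2) to 0.91 (Egr2 and Ier2). These values describe arrays that share sets and labelling, and no test was made of them.

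Among all other genes tested, those most like Egr1 over the 10 IP arrays were Efcc1 (r = 0.92), Nufip2 (0.90), Smim3 (0.89), Tas2r137 (0.89) and Glipr2 (0.88). They peaked in II/III-VI but with small differences, from 0.05 ± 0.13 for Nufip2 to 0.40 ± 0.11 for Smim3. Only Smim3 among these 5 was called over the IP windows with the block (adjusted p = 0.00740, without it 0.244). The mean of the 10 members was most like Glipr2 (0.95), B930095G15Rik (0.90), Cbarp (0.89), Dysf (0.88) and Nr4a3 (0.87).

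The relatives and partners of these genes were read from gene lists. Counts of genes higher or lower in IP are read against 50.1% and 26.6% of all genes as deposited, and 30.7% higher after centring. Of 15 tested other EGR and AP-1 genes 8 were higher in IP and 2 lower, led by Maf (1.44), Fosl2, a FOS relative (1.07), Atf4 (0.91) and Mafg (0.81). Fosl1 was lower (-0.54). After centring 5 were higher and 7 lower. Over the IP windows the smallest adjusted p of this list was 0.570 (Atf7). With the block 1 gene was called, Jund, the constitutive JUN gene (X-XII, 0.29, adjusted p = 0.0354). Jund in total testis was highest in VIII-X (0.56, adjusted p = 0.000475).

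Of 14 tested regulators of the family, 9 were higher in IP and 3 lower, after centring 7 and 5. The ternary complex factor gene Elk1 (1.64), the EGR corepressor genes Nab1 (1.58) and Nab2 (0.70) and the kinase gene Rps6ka3 (1.43) were among the higher. Crem, known for its role in spermatids, was lower (-1.01). Over the IP windows 1 of the 14 was called, Crem (VI-VIII, 0.38 ± 0.12, adjusted p = 0.0270), against 8.87% of all genes. With the block 2 were, against 19.2%, the second being Elk1 (XII-II/III, 0.31, adjusted p = 0.00189). Srf was called in neither fit (0.28 ± 0.11 in II/III-VI, adjusted p = 0.314, with the block 0.0972). In total testis Srf was highest in II/III-VI, by 0.81 ± 0.11 (adjusted p = 0.000209).

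Of 17 tested feedback genes of MAP kinase signalling, 12 were higher in IP and 0 lower, after centring 10 and 5. Spred1 (2.28), Zfp36l1 (2.09), Spry4 (1.61) and the ERK phosphatase gene Dusp6 (1.30) led. Over the IP windows 3 of 17 were called without the block and 5 with it (8.87% and 19.2% of all genes), none with its peak in II/III-VI. Dusp6, the 1 gene of this list that was highest in II/III-VI, stood 0.56 ± 0.18 above the other windows and was not called (adjusted p = 0.0823, with the block 0.0701).

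Other immediate early genes had their window effects mostly elsewhere. Of 30 tested, 11 were called over the IP windows without the block and 17 with it, against 8.87% and 19.2% of all genes. Of those 17 genes 10 peaked in X-XII and 1 in II/III-VI, while of all 3004 genes called with the block 477 peaked in X-XII and 483 in II/III-VI. This list was chosen with earlier results of these data known, so its counts are a description. Bhlhe40, a basic helix-loop-helix repressor, was higher in X-XII by 2.04 ± 0.16 (adjusted p = 8.14e-06). The orphan nuclear receptor gene Nr4a1 was higher there by 1.81 ± 0.22 (adjusted p = 0.000136). Amotl2 was higher by 1.38 ± 0.15 and the kinase gene Sik1 by 1.37 ± 0.16. The exception was Nr4a3, with 0.57 ± 0.14 in II/III-VI (adjusted p = 0.0916, with the block 0.00426). In X-XII Egr1 lay at 0.50 against its set mean in replicate 1 and at -0.38 in replicate 2, a difference of 0.08 ± 0.24 from the other windows that was not called (adjusted p = 1).

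**Figure D5:**
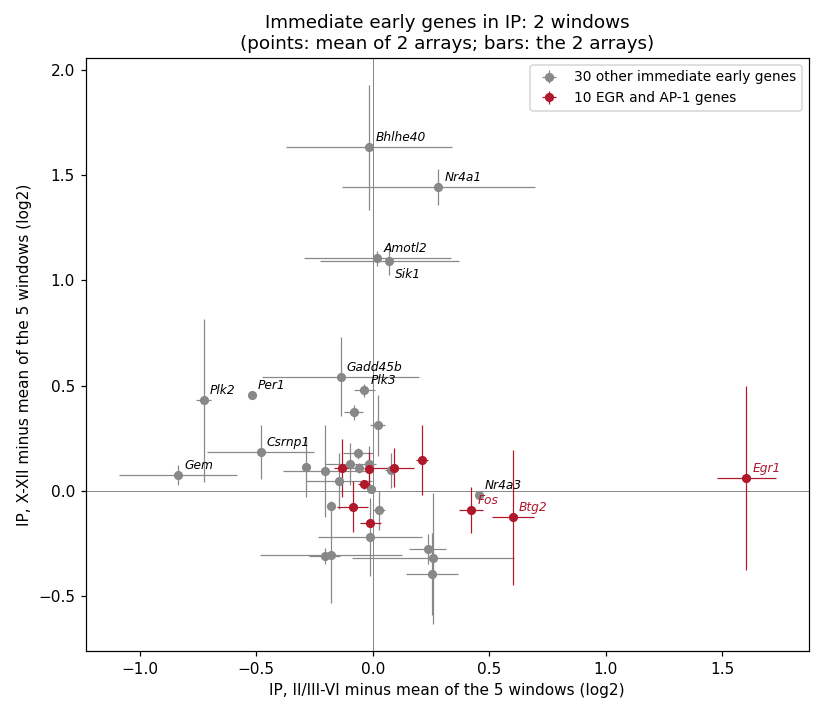
Each point is 1 immediate early gene in IP, with its mean difference from its set mean in log2 in II/III-VI (x axis) and in X-XII (y axis) and bars spanning the 2 arrays, in red for the 10 EGR and AP-1 genes and in grey for 30 other immediate early genes. Egr1, Btg2 and Fos lie to the right, and Bhlhe40, Nr4a1, Amotl2 and Sik1 at the top.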

How the data were processed

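The deposited values are linear probe set intensities, for which the submitters' processing notes name RMA (version and software not given in the sources used here). Their log2 was taken here. Symbols came from the platform annotation: of 28856 probe sets 21789 held 1 symbol and were used, 1621 held several and 5446 none. The brightest probe set stood for a gene. A gene was tested if listed on all 20 arrays and if its mean in at least 1 group passed 8.20 (25th percentile of the table in log2).

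One limma 3.58.1 fit (R 4.3.3) estimated 10 group means, leaving 10 residual degrees of freedom. Contrasts compared IP with total testis, the 5 windows within each fraction (moderated F test, and each window against the mean of the other 4) and their interaction, two-sided. Unless its own contrast is named, the adjusted p beside a highest window is that of the F test. The adjusted p of any other window is that of its own contrast. The fit was tested on simulated data. Alternatives were other scalings, filters, probe set rules, weights, variance priors, sample choices and left-out arrays, the replicate block (8 residual degrees of freedom), and for IP against total testis the set as a random block (correlation 0.64) and the testis as a block.

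IP and total RNA of a window and replicate number were taken to come from 1 testis, which the labels do not state. Their deviations from the group means correlated at 0.16 to 0.36 in the 5 windows. For IP and total RNA of different windows the values ran from -0.23 to 0.24, so the ranges overlap. Within a fraction, equal numbers mark a jointly normalized set.

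The members and gene lists were chosen with earlier results of these data known. Named genes are the 10 members, up to 4 genes per list by size with called ones first, the marker genes, and the 5 genes most like Egr1 or the members' mean.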

Additional observations from a re-analysis of the deposited data

Results flagged for a closer look

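For Fos the test of the difference between the window patterns of IP and total testis was called with the replicate block. The interaction had an adjusted p of 0.0139 (limma, Benjamini-Hochberg), where 2.31% of all genes were called. IP minus total testis was 0.33 and 1.10 in the 2 testes of II/III-VI. In the other testes it lay between -0.46 and 0.50, and the term was 0.70 ± 0.079 with the block. Without the block the adjusted p was 1. Fos passed the intensity filter only through IP II/III-VI, the group where it was high, so this p is a description. With no filter and the block, chosen after seeing the data, it was 0.0142. The same test called Egr1 after centring each array on its median (0.0297) and after quantile normalization (0.0308), but not as deposited (0.112) or with the block (0.0550).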

How the results depend on the processing

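Values that turned sign concerned members whose IP minus total difference was small. After centring each array on its median the differences were -0.33 for Egr2, -0.24 for Egr3, -0.29 for Fos, -0.33 for Fosb and -0.20 for Atf3. After quantile normalization they were -0.10, -0.22, -0.027 and -0.16 for the first 4, and in replicate 1 alone Fos was -0.20 (0.50 in replicate 2), Egr2 -0.08, Fosb -0.04 and Atf3 -0.00326. Among other settings, 243 member values kept side and direction, 17 gained a call, 9 lost one and 9 reversed, and among fits without 1 array or 1 window 536, 3, 31 and 0 did. The call of Atf3 was kept in 5 of 21 such fits, and Btg2 and Egr1 are described above.

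Counts of all genes moved with the scaling. IP against total testis gave 4798 higher and 8982 lower genes after centring, and 7182 lower after quantile normalization. For the windows within IP, main count 1388, they were 2169 (centred), 2347 (quantile), 407 (array weights), 3004 (replicate block) and 762 (IP arrays alone). For total testis, main count 2885, they were 4616, 4468, 5936, 5747 and 4790, and 5532 alone with the block. For the interaction, main count 8, they were 206 (centred), 142 (quantile), 36 (50th percentile filter), 5 (no filter), 1 (weights), 48 (trended robust prior) and 361 (block). With no filter and the block the 3 window tests gave 3058, 5852 and 353, and with no filter and the random block 2735 genes were lower in IP. The causes were not tested. Leaving out 1 array gave 1215 to 1578 genes for IP windows, 2187 to 3181 for total testis, 1 (without IP VI-VIII replicate 1 and 4 other arrays) to 27 (without IP II/III-VI replicate 2) for the interaction, and for IP against total testis 7443 to 8278 higher and 3976 to 4380 lower. The testis as a block changed no member's call. Replicate-only window values, the fit without II/III-VI and the fits with no filter and a block were chosen after seeing the data. For dim members (Fos, Ier2, Egr2 and Atf3), signal close to the floor limits what a small difference can show.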
